A study of Mus musculus with 6 samples.

Results

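The receptors and ligands of the colony-stimulating factors were followed in RAW264.7 cells, murine macrophage-like cells that can become osteoclast-like and are described in the labels as osteoclastic. The members were Csf1, Csf1r, Csf2ra, Csf2rb, Csf2rb2 and Csf3r, and every array probe set annotated to exactly 1 of these 6 genes was taken, whatever its value. This gave 13 probe sets of the 45037 tested, namely 4 for Csf1, 3 for Csf1r, 2 for Csf2ra, 2 for Csf2rb and 1 each for Csf2rb2 and Csf3r. A probe set is a group of short array oligonucleotides that together measure 1 transcript region, so probe sets of a gene share its transcripts and are not replicates. Cells were kept for 24 hours in αMEM with fetal bovine serum at a sodium concentration of 137 mmol/l (normal sodium, 3 arrays) or in a diluted medium at 120 mmol/l (low sodium, 3 arrays), in which mannitol held the osmolality at 290 mOsm/l. Although 4 biological replicates of each group are mentioned in the labels, the arrays used here number 3 per group. The labels also list 10 ng/ml of M-CSF (written M-SCF there) with RANKL, at 30 ng/ml, directly after the low-sodium medium, and do not settle whether the normal-sodium cells received them. Each difference below is therefore between the 2 groups as labelled, and an effect of sodium cannot be told apart from one of the added cytokines if only the low-sodium cells had them.

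M-CSF, the product of Csf1, keeps macrophages and osteoclast precursors alive through its receptor CSF1R, a tyrosine kinase on the cell surface, and together with RANKL it drives osteoclast formation. GM-CSF signals through a specific alpha chain, encoded by Csf2ra, and a beta chain, encoded by Csf2rb, that the receptors for IL-3 and IL-5 also use, and in mouse bone marrow it turns osteoclast precursors towards other myeloid fates. Csf2rb2 encodes a second mouse beta chain that serves IL-3, and Csf3r encodes the G-CSF receptor of granulocytes and monocytes. CSF1R is shed from the surface by the protease ADAM17, and transcription of these receptor genes in myeloid cells depends on PU.1, the product of Spi1.

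Promoter sequences are shown for 3 of the 4 members whose search is reported (Csf1, Csf2ra, Csf2rb2 and Csf3r). The sequences shown held the letters GAGGAAG, which contain the purine-rich core that PU.1 binds. They are the 250 bases before the RefSeq start of each gene (build GRCm38.p6), given 5′ to 3′ on the strand of the gene with each GAGGAAG, or its reverse complement, in capitals.
Csf2ra, chr19:61228419-61228668 (-): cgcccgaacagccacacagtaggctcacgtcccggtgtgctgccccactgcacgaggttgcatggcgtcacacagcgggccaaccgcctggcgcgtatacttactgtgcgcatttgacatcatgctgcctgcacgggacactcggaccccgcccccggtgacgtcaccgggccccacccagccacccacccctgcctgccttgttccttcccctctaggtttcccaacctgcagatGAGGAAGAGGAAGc
Csf2rb2, chr15:78305722-78305971 (-): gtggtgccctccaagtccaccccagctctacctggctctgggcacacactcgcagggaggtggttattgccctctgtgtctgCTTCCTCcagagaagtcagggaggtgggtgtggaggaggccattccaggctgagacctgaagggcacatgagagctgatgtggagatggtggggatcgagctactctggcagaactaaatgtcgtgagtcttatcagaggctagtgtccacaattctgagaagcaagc
Csf3r, chr4:126024409-126024658 (+): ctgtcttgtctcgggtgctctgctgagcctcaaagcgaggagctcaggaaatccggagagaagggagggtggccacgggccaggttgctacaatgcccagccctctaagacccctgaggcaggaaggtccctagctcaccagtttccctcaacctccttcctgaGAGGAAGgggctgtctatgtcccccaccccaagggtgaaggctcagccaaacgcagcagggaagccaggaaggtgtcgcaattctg
Both strands were searched, and the motif was chosen after these sequences had been read. In the Csf2ra promoter the letters occurred 2 times, the copies sharing 1 base and ending 2 bases before the start. The Csf3r promoter held 1 copy, 86 to 80 bases before the start, and the Csf2rb2 promoter held 1 on the other strand. The Csf1 promoter held 0. That of Csf1r is not reported here, and Csf2rb had no promoter entry. Of the 32851 promoter entries of this length, 10.6% held the motif at least once. A match is a description of letters and not a measured site. Spi1 itself had a log2 intensity of 12.47 ± 0.01 in normal sodium and 12.48 ± 0.04 in low sodium (SD, n = 3), a difference of 0.01 ± 0.15 (SE).

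The values are deposited microarray intensities, 1 per probe set and array, and differences are low minus normal sodium on the scale of log2(intensity + 1). A trimmed mean, over values from percentile 2 to percentile 98, came to 500.0 on every array. Median intensities lay between 66.5 and 74.5 on the arrays of replicates 1 and 2 and were 56.1 and 47.8 on those of replicate 3 in normal and low sodium. Spiked labelling controls averaged a log2 intensity of 10.04 to 10.33 on the former and 8.36 on each of the latter, so replicate 3 was treated as a batch with 1 array of each group. Differences within replicates 1 and 2 and within replicate 3 are given beside those over all arrays for the members and for most pathway genes that are named as rising or falling. The test was a limma fit on all 6 arrays, adjusted by Benjamini-Hochberg over all probe sets, and a fit that added the batch and a trended variance prior (the batch-term fit) is given beside it. The batch-term fit was taken up with its counts of calls already known. Of the 45037 probe sets 0 (0%) passed the limma fit without the batch, 2868 (6.37%) had an unadjusted p under 0.05 there, and 1840 (4.09%) passed the batch-term fit. The labels call the replicates biological without naming separate cultures, so a p-value measures only the spread between these arrays. In bulk RNA, fewer cells expressing a gene and less of its RNA per cell cannot be told apart.

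The signal of Csf1r was lower on every low-sodium array than on any normal-sodium array. Between the group means of the log2 values it was 1.12-fold to 1.44-fold lower over its 3 probe sets. Csf2ra in its bright probe set averaged 1.25-fold higher and Csf2rb2 1.41-fold higher in low sodium, both with overlapping groups. Of the 4 Csf1 probe sets 3 were below the median of all probe sets, and the differences of Csf2rb and Csf3r were within the spread between arrays. Of the 13 probe sets 0 passed the limma fit without the batch, and 0 had an unadjusted p under 0.05 in it. In the batch-term fit 2 of the 13 passed, against 4.09% of all probe sets, and both belonged to Csf1r and were lower in low sodium, as were 2.01% of all probe sets. The groups did not overlap in 3 of the 13, against 14.9% of all probe sets, and these were the 3 Csf1r probe sets. Of the 10 member probe sets not below the median, 3 did not overlap and 2 passed the batch-term fit. Of all 22519 probe sets at that level, 4721 did not overlap and 1809 passed. The median difference was 0.10 over the 13 member probe sets and -0.02 over all probe sets, and the members ranged from -0.52 to 0.69.

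Csf1r was among the brightest transcripts on the arrays, with its 3 probe sets above the 98th percentile of all probe sets in mean log2 intensity. Probe set 1423593_a_at read 13107, 12753 and 12527 in normal sodium (replicates 1, 2 and 3) and 10219, 10249 and 6718 in low sodium. Every low-sodium array was below every normal-sodium array, and the low-sodium replicate 3 array was the lowest. The log2 mean went from 13.64 ± 0.03 to 13.12 ± 0.35 (SD, n = 3), a difference of -0.52 ± 0.25 (SE) or 1.44-fold lower. The limma fit gave it an adjusted p of 0.801, and its 95% interval ran from -1.15 to 0.10. In the batch-term fit the SE was 0.11 and the adjusted p 0.0432. Replicates 1 and 2 differed by -0.34 on average and replicate 3 by -0.90.

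Probe set 1419873_s_at of Csf1r read 20618, 20809 and 20748 in normal sodium and 17290, 17433 and 15902 in low sodium. The normal-sodium arrays were nearly level, and all low-sodium arrays were below them. The difference was -0.30 ± 0.19, or 1.23-fold lower, with an adjusted p of 0.852 in the limma fit and 0.0361 in the batch-term fit. Within the batches it was -0.25 in replicates 1 and 2 and -0.38 in replicate 3.

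Probe set 1419872_at, the brightest of the gene, read 23866, 22340 and 24059 in normal sodium and 22250, 21004 and 19711 in low sodium. The nearest arrays of the 2 groups were close, at 22340 and 22250. The difference was -0.16 ± 0.19, or 1.12-fold lower, and it passed neither the limma fit (adjusted p = 0.926) nor the batch-term fit (adjusted p = 0.298). All 3 probe sets were lower in low sodium in each of the 3 replicate numbers, as were 18.7% of all probe sets. Groups that did not overlap, with low sodium lower, occurred in 7.88% of all probe sets and in 7.32% of the brightest 1%. An exact two-sided permutation test of each Csf1r probe set gave p = 0.1, the smallest that 3 against 3 arrays can give.

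**Figure D1:**
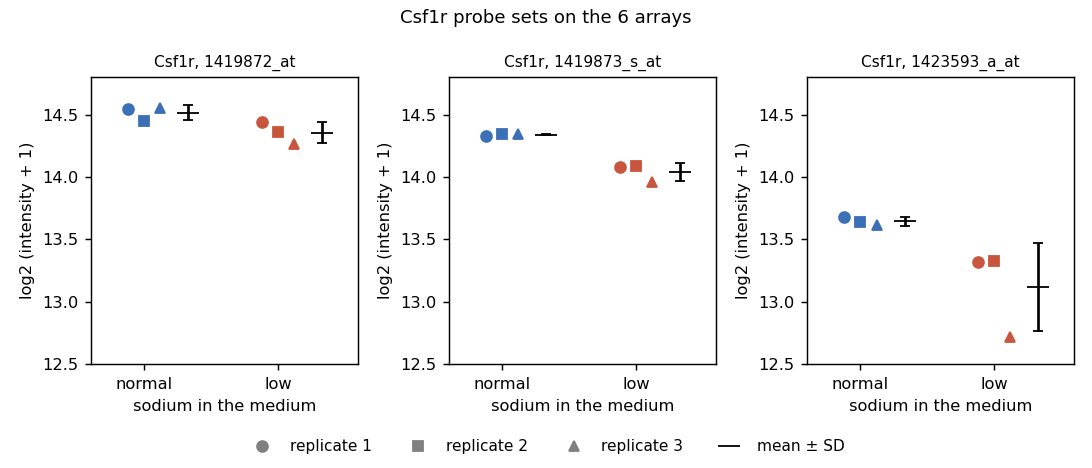
Log2 (intensity + 1) of the 3 Csf1r probe sets on each array, by sodium in the medium; symbols mark the replicate number and bars the mean ± SD of 3 arrays, on 1 common axis that does not start at 0. All low-sodium arrays lie below all normal-sodium arrays in each panel, and the low-sodium replicate 3 array is the lowest, most of all in 1423593_a_at.

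The 2 Csf1r calls rested on the model and on the arrays used. With the replicate number as a block and a trended prior, which called 1.56% of all probe sets and 0 of the 13, the adjusted p were 0.114 for 1423593_a_at and 0.14 for 1419873_s_at. Leaving any 1 of the 4 arrays of replicates 1 and 2 out of the batch-term fit ended both calls, with adjusted p from 0.114 to 0.166, while the differences were -0.57 to -0.59 for 1423593_a_at and -0.31 for 1419873_s_at. These fits called 0.844% to 1.2% of all probe sets, against 4.09% with all arrays. Without either replicate 3 array both probe sets passed at 0.00373 to 0.00799, on what are then in effect replicates 1 and 2 alone. Those fits called 8.09% and 8.18% of all probe sets. The difference of 1423593_a_at itself was -0.34 without a replicate 3 array, against -0.52 with all arrays.

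Of the 4 probe sets of the ligand gene Csf1, 1 was above the median of all probe sets in mean log2 intensity. That probe set, 1425154_a_at, read 131, 168 and 162 in normal sodium and 167, 235 and 63.2 in low sodium. The low-sodium arrays thus lay on both sides of the normal-sodium ones, with replicate 3 the lowest of all. Its difference was -0.17 ± 0.51, with 0.42 in replicates 1 and 2 and -1.34 in replicate 3. The other 3 Csf1 probe sets read between 6.22 and 117 and differed by 0.20 to 0.69, with SE of 0.74 to 1.01. Their differences disagreed between replicate numbers in 2 of the 3, and adding 16 in place of 1 before the log changed that of 1448914_a_at from 0.69 to 0.46. The 5 other cytokine genes on the ligand list, Csf2, Csf3, Il3, Il5 and Il34 (the second CSF1R ligand), were all below the median of all probe sets, and 0 of the 5 passed either fit. Their differences were -0.66 for Il3, 0.40 for Csf3 and -0.32 for Csf2, each with an SE of 0.60 to 0.79. With 16 added, that of Il3 was -0.23.

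Csf2ra, the GM-CSF receptor alpha chain, was bright in probe set 1420703_at. It read 3179, 2951 and 2319 in normal sodium and 3816, 4235 and 2605 in low sodium. The low-sodium array was the higher in each replicate number. The groups overlapped because the low-sodium replicate 3 array was below the normal-sodium arrays of replicates 1 and 2. Both replicate 3 arrays were the lowest of their group. The difference was 0.32 ± 0.28, or 1.25-fold higher, with 0.39 in replicates 1 and 2 and 0.17 in replicate 3. It did not pass the limma fit (adjusted p = 0.895) or the batch-term fit (adjusted p = 0.0919). Fitted on replicates 1 and 2 only, and with a trended prior, it passed (adjusted p = 0.0163). The second probe set, 1420704_at, read 106, 88.5 and 117 in normal and 92.0, 134 and 63.5 in low sodium, and its difference of -0.16 ± 0.33 had the opposite sign in replicates 1 and 2 (0.19).

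The beta chain genes Csf2rb and Csf2rb2 are adjacent protein-coding genes in the RefSeq annotation and are closely similar copies, so that oligonucleotides of 1 may bind transcripts of the other. Csf2rb2, the IL-3 beta chain, read 296, 305 and 295 in normal sodium and 560, 458 and 291 in low sodium. The normal-sodium arrays were nearly level, the low-sodium arrays of replicates 1 and 2 were well above them, and that of replicate 3 was below them all. The difference was 0.49 ± 0.30, or 1.41-fold higher, with 0.75 in replicates 1 and 2 and -0.02 in replicate 3. It passed neither the limma fit (adjusted p = 0.846) nor the batch-term fit (adjusted p = 0.231). In that fit on replicates 1 and 2 only the adjusted p was 0.0167, and 4 member probe sets passed there, against 8.25% of all probe sets.

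Csf2rb, the common beta chain, read 1049, 982 and 1208 in normal sodium and 1221, 1102 and 1130 in low sodium in its brighter probe set, 1455660_at. The groups overlapped and the difference was 0.10 ± 0.20, with a 95% interval from -0.41 to 0.60. It was 0.19 in replicates 1 and 2 and -0.10 in replicate 3. Its other probe set, 1421326_at, read 448, 426 and 663 in normal and 453, 549 and 311 in low sodium. Here the replicate 3 arrays were the highest of the normal and the lowest of the low group, and the media differed by 0.19 in replicates 1 and 2 but by -1.09 in replicate 3 (-0.24 ± 0.32 over all arrays). A further probe set, 1450200_s_at, was annotated to both beta chain genes and was therefore no member, and its difference was -0.22 ± 0.43.

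Csf3r, the G-CSF receptor, separated by replicate number rather than by medium. It read 181, 177 and 366 in normal sodium and 159, 208 and 434 in low sodium, so that the replicate 3 array was the highest in both media. The difference was 0.10 ± 0.50 (adjusted p = 0.987 in the limma fit, 0.842 in the batch-term fit), with 0.03 in replicates 1 and 2 and 0.25 in replicate 3. The 95% interval of -1.12 to 1.32 leaves room for a change of more than 2-fold in either direction.

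**Figure D2:**
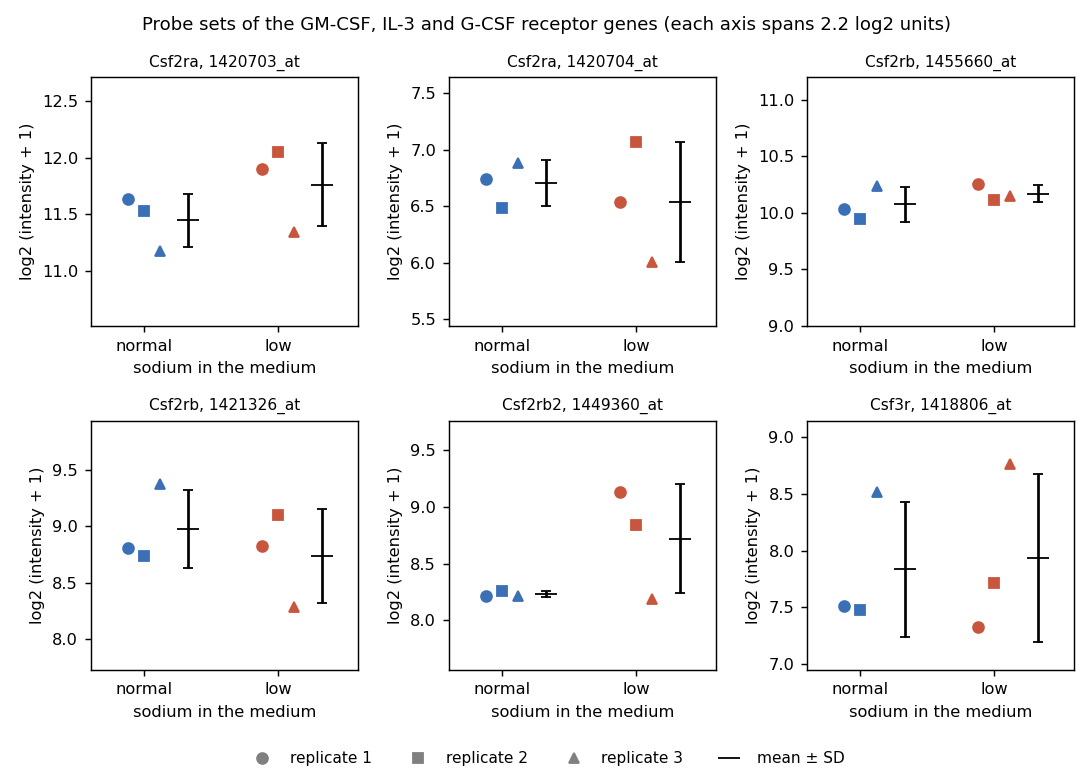
Log2 (intensity + 1) of the 6 probe sets of Csf2ra, Csf2rb, Csf2rb2 and Csf3r on each array, by sodium in the medium; symbols mark the replicate number and bars the mean ± SD of 3 arrays, and each axis spans 2.2 log2 units. In Csf2ra 1420703_at the low-sodium array is the higher in every replicate number, in Csf2rb2 the replicate 3 arrays are level, and in Csf3r both replicate 3 arrays stand above the rest.

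Read by replicate number, replicates 1 and 2 gave differences of 1 sign in 10 of the 13 probe sets, and all 3 numbers gave 1 sign in 5. These 5 were the 3 Csf1r probe sets, all negative, and Csf2ra 1420703_at and the dim Csf1 1425155_x_at, both positive. All 3 numbers had 1 sign in 36.1% of all probe sets and in 46.7% of those not below the median intensity. Replicate 3 gave the most negative difference of the 3 numbers in 11 of the 13 probe sets. The matching shares of all probe sets were not counted for these 11 or for the 10 above. Over all 18193 genes the median of low minus normal sodium also lay lower for replicate 3 (-0.06) than for replicates 1 and 2 (0.02). The 11 of 13 is therefore not shown to be particular to the members.

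**Figure D3:**
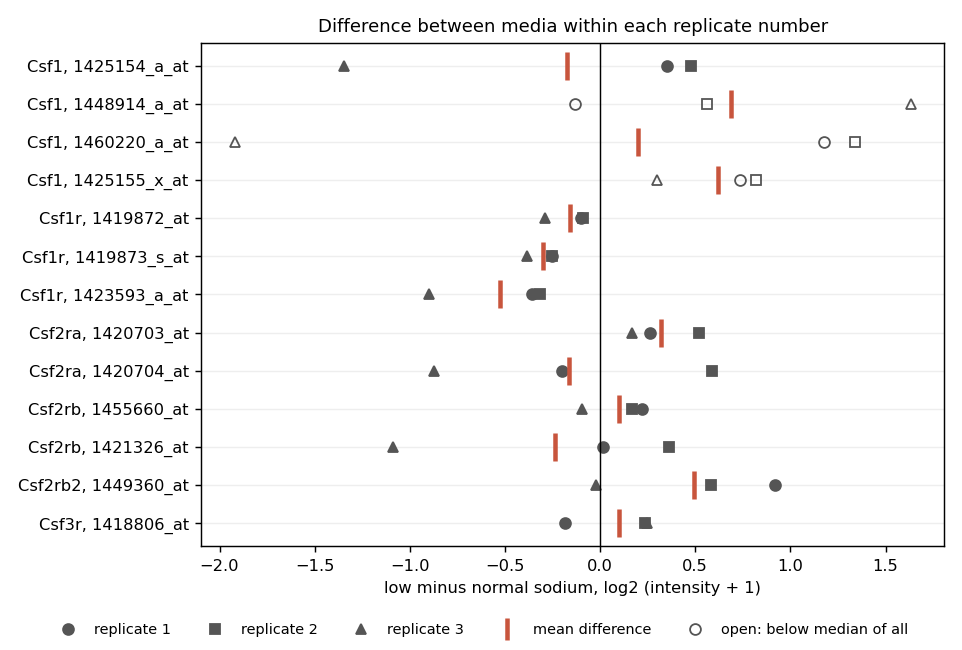
Low minus normal sodium in log2 (intensity + 1) for each of the 13 member probe sets within replicates 1, 2 and 3 (symbols) and as the mean of the 3 (red bar); open symbols are probe sets below the median of all in mean intensity. The Csf1r points are all negative, whereas those of Csf1 1425154_a_at and Csf2rb 1421326_at lie on both sides of 0.

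The genes whose profile over the 6 arrays was most like each member's are given as a description, since with 6 arrays and 10411 genes compared high values of r arise readily. Csf1r (1419872_at) was most like the cytidine deaminase gene Apobec3 (r = 0.989) and the chromatin gene Phf12 (r = 0.982). Csf2ra was most like Plekhm3 and Fam209 (r = 0.996 for both), and Csf2rb2 most like the co-chaperone gene Dnajb4 and the ubiquitin ligase gene Rnf149 (r = 0.99 and 0.983). Csf2rb was most like Zfp329 (r = 0.98) and Scrn2 (r = 0.97). Csf3r was most like Kars, a tRNA synthetase gene, and Psmd4, a proteasome gene (r = 0.998 and 0.997), and Csf1 most like Tmem208 and Nin (r = 0.99 for both). These arrays share the separation of replicate 3, which enters each r.

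Pathway genes around the receptors were counted on 7 lists, with each gene represented by its brightest probe set. Of 75 listed genes 70 were measured, and 0 of them passed the limma fit without the batch, in which 1 of 18193 genes did (0.0055%). In the batch-term fit 14 rose and 2 fell, against 3.78% of all genes higher and 3.81% lower. Of the 14, 8 were on the M-CSF response list of 10 genes, which was chosen with earlier results of these data known. The median difference was 0.06 over the 70 genes and -0.01 over all genes. With the replicate block and a trended prior 6 were higher and 0 lower, against 1.7% and 1.29% of all genes. The verbs in the next paragraphs refer to the batch-term fit, and the SE is that of this fit.

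Genes known to respond to M-CSF were the list with the most calls. Of 10 genes 8 rose, against 3.78% of all genes, and 0 fell, with a median difference of 1.04. The list was chosen with earlier results of these data known, and whether the normal-sodium cells also received M-CSF is not settled. The zinc-finger factor gene Egr2 read 252, 218 and 133 in normal sodium and 1053, 934 and 263 in low sodium, so that the low-sodium array was the higher in each replicate number and by most in replicates 1 and 2. It rose by 1.71 ± 0.23 (adjusted p = 0.00694), with 2.08 in replicates 1 and 2 and 0.98 in replicate 3. The chemokine gene Ccl2 read 666, 668 and 335 in normal sodium and 10247, 10147 and 491 in low sodium. It rose by 2.80 ± 0.59 (adjusted p = 0.0322), almost entirely through replicates 1 and 2 (3.93, against 0.55 in replicate 3). The cyclin gene Ccnd1 rose by 0.65 (0.45 in replicates 1 and 2, 1.06 in replicate 3) and Egr1 by 1.42 (0.82 and 2.62), whereas Ets2 (-0.29) and Ier2 (-0.13) did not pass. Myc and the urokinase gene Plau, which also rose, had adjusted p of 0.553 and 0.366 in the limma fit. With the replicate block 4 of the 10 passed.

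Downstream of CSF1R, 3 of 22 measured adaptor, kinase and phosphatase genes rose and 2 fell, with a median of -0.10. Gab2, an adaptor that links the receptor to PI3 kinase, read 788, 954 and 860 in normal sodium and 1343, 1619 and 2782 in low sodium, without overlap. It rose by 1.07 ± 0.20 (adjusted p = 0.0194, and 0.517 in the limma fit), with 0.77 in replicates 1 and 2 and 1.69 in replicate 3. Dok1, an adaptor that restrains tyrosine kinase signalling, rose by 0.89 ± 0.17, with 0.59 in replicates 1 and 2 and 1.48 in replicate 3. The kinase gene Src rose by 2.27 ± 0.44, with 1.62 and 3.56 in the same order. In the limma fit, which has no batch term, its difference without the normal-sodium replicate 3 array was 1.25. Its normal-sodium arrays read 74.2, 84.1 and 8.58, replicate 3 being the lowest. Pik3cd, a catalytic subunit of PI3 kinase, read 1107, 1118 and 997 in normal and 780, 896 and 578 in low sodium and fell by 0.54 on the log2 scale (-0.41 in replicates 1 and 2, -0.78 in replicate 3). The GTPase gene Rac2 fell by 0.35 (-0.34 and -0.36). With the replicate block and a trended prior Gab2 alone of the 22 passed, and 0 were lower.

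Of 14 genes of the JAK-STAT5 pathway and its feedback, through which the beta chain receptors signal, 1 rose and 0 fell. This was the survival gene Bcl2l1, at 1368, 1556 and 573 in normal sodium and 3158, 2688 and 1741 in low sodium, a rise of 1.20 ± 0.14 (adjusted p = 0.00441), with 1.00 in replicates 1 and 2 and 1.60 in replicate 3. Each low-sodium array was above all 3 normal-sodium arrays. Jak2, Stat5a and Stat5b differed by 0.04, -0.19 and -0.02 without passing, as did Mcl1 (0.23) and the feedback genes Cish (0.25) and Socs3 (-0.83). Transcription factors that act on the Csf1r gene numbered 11, of which Fos and Mitf rose, by 0.64 ± 0.10 and 0.59 ± 0.11, and 0 fell. Replicates 1 and 2 gave 0.49 for Fos and 0.46 for Mitf, and replicate 3 gave 0.92 and 0.87. With the replicate block and a trended prior 1 of the 11 passed, since Mitf then had an adjusted p of 0.0532. Runx1 differed by -0.57 and Fli1 by -0.21 without passing. The list median was 0.05.

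On the shedding list of 4 genes, Adam17, the protease that releases the CSF1R ectodomain, rose by 0.55 ± 0.12 (adjusted p = 0.032), with 0.36 in replicates 1 and 2 and 0.93 in replicate 3. Its adjusted p was 0.678 in the limma fit and 0.0882 with the replicate block and a trended prior, where 0 of the 4 passed. It read 6100, 6420 and 3643 in normal sodium and 8238, 7859 and 6945 in low sodium. All low-sodium arrays exceeded all normal-sodium arrays. Rhbdf2, whose product brings ADAM17 to the surface, differed by 0.41 ± 0.10 and missed the threshold (adjusted p = 0.0502). It differed by 0.29 in replicates 1 and 2 and by 0.66 in replicate 3. In the limma fit, which has no batch term, leaving out the normal-sodium replicate 3 array gave 0.059. Timp3, an ADAM17 inhibitor gene, was dim and differed by -0.84 without passing, or by -0.27 with 16 added in place of 1. Among 6 related receptor genes, all below the median of all probe sets, 0 passed. Pdgfrb, a class III receptor kinase gene that is the adjacent protein-coding gene to Csf1r in the RefSeq annotation, read 25.6, 32.8 and 32.6 in normal and 8.49, 4.09 and 6.49 in low sodium. Its difference of -2.13 had an adjusted p of 0.265 in the limma fit and 0.0646 in the batch-term fit, at a signal where differences depend on the constant added. Flt3 and Il5ra differed by -1.49 and -0.70, or by -0.93 and -0.29 with 16 added.

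**Figure D4:**
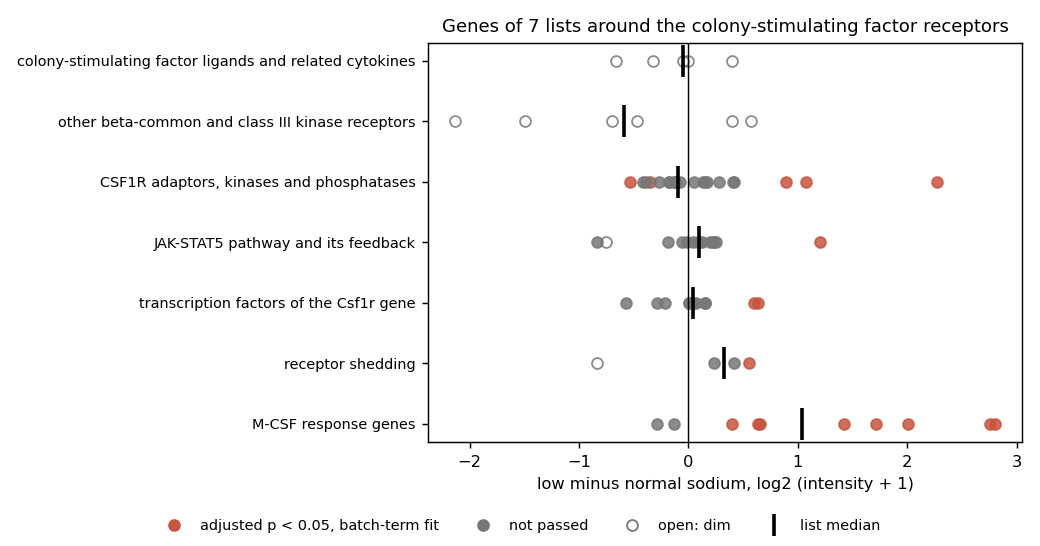
Low minus normal sodium in log2 (intensity + 1) for the measured genes of 7 lists around the colony-stimulating factor receptors, 1 point per gene; red marks an adjusted p under 0.05 in the batch-term fit, open points are dim, and the black bar is the list median. Of the M-CSF response genes 8 of 10 are red and positive, while most genes of the signalling lists lie near 0.

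Cell type markers were read on the same arrays. None of the 10 macrophage markers was dim (below the median of all probe sets), and 3 of the 10 (Mertk, Adgre1 and Mpeg1) rose. The log2 of the 10 summed intensities was 16.54 to 16.59 in normal and 16.69 to 16.83 in low sodium. The brightest genes weigh most in such a sum. Osteoclast markers rose in 5 of 8, where 3.78% of all genes rose in that fit. The log2 of their summed intensities was 9.65 to 11.10 in normal and 12.60 to 12.87 in low sodium. On the low-sodium replicate 3 array Atp6v0d2, at 6156, made up most of the sum. The other rising markers, Dcstamp (467), Ocstamp (58.5), Mmp9 (146) and Ctsk (352), had their lowest low-sodium values on that array. The groups overlapped for Dcstamp, Ocstamp, Mmp9 and Ctsk but not for Atp6v0d2, which read 1639, 1811 and 6156 in low sodium. Acp5, Calcr and Oscar did not pass. Both sums were higher in low sodium, where the Csf1r signal was lower, and the part of these markers in that signal was not tested. With the replicate block and a trended prior 3 of the 8 and 3 of the 10 macrophage markers passed, and Mmp9 (adjusted p = 0.0688) and Ctsk (adjusted p = 0.0535) did not. In the limma fit 0 of either list passed. Of 7 granulocyte, 6 stromal or osteoblast, 3 B cell and 3 T cell markers measured, 0 passed, and 5 of these 19 were not dim. The log2 of the summed granulocyte marker intensities ran from 8.33 to 8.56 in normal and from 7.87 to 8.53 in low sodium.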

How the data were processed

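Affymetrix arrays of biotin-labelled RNA were used, 1 for each of 6 RAW264.7 samples, per the labels. The authors deposited 1 intensity per probe set and array on a linear scale, in 45101 rows. The submitters' processing notes name Partek, and how probes were summarised is not stated there. The equal trimmed means show that the values had been scaled per array. No detection calls were used, so a probe set below the median of all in mean log2 intensity is called dim. The number of arrays limits the precision.

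The 64 control probe sets were left out, which left 45037, of which 34945 carried 1 gene in the platform annotation, 932 several and 9160 none. Symbols of 34741 were updated through RefSeq (GRCm38.p6), and promoter sequences come from the same release. Log2(intensity + 1) was fitted in R 4.3.3 by limma (version 3.58.1, functions lmFit and eBayes, two-sided, Benjamini-Hochberg, adjusted p under 0.05). For gene counts, the probe set of highest mean stood for each of 18193 genes. Scripts were tested on simulated data.

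The members, lists and tests were chosen with earlier results of these data known, the batch-term fit included. Named genes are all member probe sets, up to 3 genes of each pathway list with the smallest p, and 2 genes most like each member. Other genes of the lists were named after their values were seen. Of 120 list entries 109 were measured. Deviations from the group means correlated between arrays of the same replicate number at 0.0646 to 0.196 over all probe sets and at 0.329 to 0.514 over the brighter ones. Replicates 1 and 2 correlated as well across numbers (0.325 and 0.346). Deviations from a mean of 3 arrays sum to 0, so with replicate 3 apart those of replicates 1 and 2 become alike. The correlations therefore cannot show whether replicates 1 and 2 are paired between the groups. The numbers were not taken as pairs in the limma fit or the batch-term fit, and the replicate block is given as an alternative. Alternatives covered the added constant, normalisation, variance prior, filter, replicate block, batch and each array left out.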

Additional observations from a re-analysis of the deposited data

How the results depend on the processing

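Across other settings of the analysis, the number of the 13 member probe sets called was 0 in all but the batch-term fit, which called 2. Added after seeing the data, replicates 1 and 2 alone with a trended prior called 4, and 8.25% of all probe sets. The batch-term fit without single arrays, also added then, called 0 to 4, and 0.844% to 8.18% of all probe sets. Over all probe sets the calls were 0, with 1 at a pseudocount of 16, 33 with a trended prior, 2 in the brighter 50%, 1840 in the batch-term fit and 703 with the replicate block and a trended prior (0 with the block and a constant prior). Over all genes the 1 call became 4, 40, 16, 1382 and 544 in the same order, 2 with the batch term and a constant prior, 2 with the probe set of highest minimum, and 0 with quantile normalisation, median centring, a robust prior, the replicate block with a constant prior or replicates 1 and 2 alone. Leaving out 1 array from the limma fit without the batch gave 0 to 3 genes and 0 probe sets. The ranges below for 1 array left out come from that fit.

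The 3 Csf1r probe sets, Csf2ra 1420703_at, Csf2rb 1455660_at and Csf2rb2 kept their sign under each of these settings, apart from the last 2 of these in replicate 3 alone (-0.10 and -0.02). Without replicate 3 the sign turned for Csf1 1425154_a_at (0.42), Csf2ra 1420704_at (0.19) and Csf2rb 1421326_at (0.19), and also for Il3 (0.032), Csf2 (0.69) and Timp3 (0.49). Leaving out 1 array gave ranges of -0.57 to 0.37 for Csf1 1425154_a_at, -0.091 to 1.08 for 1448914_a_at, -0.43 to 1.37 for 1460220_a_at, -0.24 to 1.37 for 1425155_x_at, -0.43 to 0.10 for Csf2ra 1420704_at and -0.32 to 0.44 for Csf3r. The ranges were -0.14 to 0.94 for Csf3, -0.94 to 0.56 for Csf2, -1.53 to 0.0091 for Il5ra and -1.59 to 0.57 for Timp3. Values that kept their sign ran from 0.18 to 0.53 for Csf2ra 1420703_at, 0.29 to 0.76 for Csf2rb2, 0.29 to 0.70 for Adam17, 0.059 to 0.65 for Rhbdf2, 1.25 to 2.83 for Src, 0.52 to 1.09 for Dok1 and -1.95 to -0.63 for Flt3. The causes were not tested. Scaling moved the median of all probe sets by less than 0.1 on the log2 scale.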
